A study of Homo sapiens with 8 samples.

Results

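The cytosolic ribosomal protein genes were taken as all protein-coding genes whose symbol begins with RPL or RPS and a number, together with RPLP0, RPLP1, RPLP2 and RPSA and without the RPS6K kinases. This name rule found 85 of the 34164 genes listed over both expression tables, and each of the 85 stood in both tables. Of these, 77 encode core proteins of the cytosolic ribosome, 31 in the small (40S) and 46 in the large (60S) subunit. A further 7 are paralogs or like-named genes (RPL3L, RPL7L1, RPL22L1, RPL26L1, RPL36AL, RPL39L and RPS27L), and RPS19BP1 encodes a protein that binds RPS19 and is no subunit. The rule misses core proteins whose genes bear other names, such as FAU and RACK1, which are given separately.

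RNA was sequenced from Kyse510, an established human ESCC (esophageal squamous cell carcinoma) cell line, in 8 libraries with 1 library per condition. Cells of the pharmacological arm received vehicle (DMSO), SP2509 at 7 µM, UNC0642 at 7 µM, or SP2509 and UNC0642 together. The inhibitor treatments lasted 2 days, and no duration is given for vehicle. SP2509 inhibits the histone demethylase LSD1 (gene KDM1A) and UNC0642 inhibits the histone methyltransferase G9a (gene EHMT2), and since no separate dose is given for the combination, 7 µM of each was assumed. In the genetic arm, stable lines that carry a lentiviral Dox-inducible hairpin, shLSD1 or shG9a, were kept under puromycin for 14 days. They were then grown with Dox (doxycycline) for 2 days, or without Dox for a time that is not given. All 4 of these libraries carry a hairpin construct, each enzyme was targeted by 1 hairpin, and a line with a control hairpin was not analysed here, so an effect of Dox itself or of making any hairpin cannot be told apart from that of the knockdown.

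Each cytosolic ribosome holds 1 copy of nearly every core protein, and the mRNAs of these proteins are among the most abundant in growing cells. They share a TOP element, a cytosine at the first transcribed base followed by an unbroken run of pyrimidines, through which the kinase complex mTORC1 and the RNA-binding protein LARP1 control their translation as a group. MYC, a transcription factor that promotes growth, is known to raise the transcription of ribosomal protein genes.

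The transcription starts of the members that the comparisons turn on are shown as 20 bases before and 20 bases from the annotated start, 5′ to 3′, from RefSeq (GRCh38.p14), with the run of pyrimidines that begins with C at the start in capitals. RPS27 and RPL39 had the largest increases with both inhibitors, RPL3, RPSA and RPLP0 were among the largest decreases, and RPL22, RPL22L1, RPL36AL and RPS27L are a core gene and 3 like-named genes that moved in other ways.
RPS27: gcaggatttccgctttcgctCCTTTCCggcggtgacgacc
RPL39: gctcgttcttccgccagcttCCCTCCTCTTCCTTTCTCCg
RPL3: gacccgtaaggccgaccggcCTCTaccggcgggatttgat
RPSA: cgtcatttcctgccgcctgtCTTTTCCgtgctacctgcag
RPLP0: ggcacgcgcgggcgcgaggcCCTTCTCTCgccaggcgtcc
RPL22: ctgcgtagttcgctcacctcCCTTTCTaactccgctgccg
RPL22L1: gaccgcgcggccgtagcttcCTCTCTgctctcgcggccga
RPL36AL: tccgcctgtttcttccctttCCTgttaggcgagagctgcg
RPS27L: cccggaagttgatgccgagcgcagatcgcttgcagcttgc

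These windows lie at chr1:153990742-153990781 on the plus strand for RPS27, chrX:119791611-119791650 on the minus strand for RPL39, chr22:39319604-39319643 on the minus strand for RPL3, chr3:39406700-39406739 on the plus strand for RPSA and chr12:120201092-120201131 on the minus strand for RPLP0. Those of the other genes lie on the minus strand, at chr1:6199576-6199615 for RPL22, chr3:170870176-170870215 for RPL22L1, chr14:49620607-49620646 for RPL36AL and chr15:63157458-63157497 for RPS27L. The run of C or T is 7 bases in RPS27, 19 in RPL39, 4 in RPL3, 7 in RPSA and 9 in RPLP0, so genes that were higher and genes that were lower with both inhibitors carry such runs. A start entry was found for 62 of the 77 core genes, and 46 of these (74.2%) had a start at C with at least 4 further pyrimidines. The same letters open at least 1 listed start of 5.14% of the 27305 genes with an entry and of 8.11% of the 74 genes of the mitochondrial ribosome. Among 9281 protein-coding genes with an entry that reached 1 FPKM in at least 1 library, the share was 7.49%. RPL3, with its shorter run, and RPL36AL, with a run of 3, fall outside that definition, and RPS27L begins with G. Of the 5 like-named genes with a start entry, RPL22L1, with a run of 6, was the only 1 that met the definition. A match of these letters is a description of the annotated start and not a measured site.

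Values are FPKM, fragments divided by the length of the gene and by the total of the library, and reads refer to the fragments recovered from them. The libraries held between 15662035 and 17889466 reads. KDM1A stood at 26.0 FPKM without and 6.29 with Dox in the shLSD1 line, and EHMT2 at 7.85 without and 4.76 with Dox in the shG9a line, so both targets were lower in the library labelled as induced. Of 6 squamous and epithelial markers, KRT5, TP63, CDH1 and EPCAM stood above 18 FPKM in every library, while KRT14 ranged from 1.102 to 10.1 FPKM and KRT6A from 0.676 to 20.03 FPKM. The listed markers of leukocytes, endothelium, fibroblasts and liver stayed at or below 0.569 FPKM except COL1A1, at 2.92 to 5.36 FPKM. Since no condition has a second library, the spread between replicates is unknown and no test of a condition was possible: a gene is counted as higher or lower where (FPKM + 1) differed by at least 1.3-fold, among genes with at least 1 FPKM in either library, and intervals in brackets are 95% intervals of the ratio of FPKM that cover counting error only.

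The ribosomal protein genes were among the most abundant mRNAs in every library. In vehicle, 71 of the 77 core genes stood at 10 FPKM or more and 53 at 100 FPKM or more. Among the highest FPKM were those of RPS2 (1265), RPS12 (692), RPL41 (649) and RPL13A (609). RPS2, RPL35A, RPLP0 and RPLP1 were among the leading genes when the reads were instead divided by the length of 1 protein-coding transcript, at 3477 on the same scale for RPS2, 2335 for RPLP1, 2206 for RPLP0 and 1870 for RPL35A. RPS2 was highest on both scales, and RPLP0 and RPLP1, whose proteins form the stalk that recruits elongation factors, ranked higher per transcript than by FPKM. The gap arises because the FPKM were divided by the summed length of all annotated exons of a gene, with a median of 2977 bases over the 85 genes, whereas the transcripts have a median of 677 bases.

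The lowest core genes in vehicle were RPL17 (0.777 FPKM), RPS10 (1.21 FPKM), RPL36A (1.97 FPKM, 122 reads), RPS15A (2.30 FPKM) and RPS23 (2.87 FPKM). Each encodes a core protein of the same ribosome as RPS2, at a level far below it. RPL17, RPS10 and RPL36A each overlap a readthrough gene that shares their exons (RPL17-C18orf32, RPS10-NUDT3 and RPL36A-HNRNPH2), and pseudogenes named after a member held more reads than the member itself for RPS10 and RPL9 in vehicle. For RPS10 such pseudogenes held 72.1% of the summed reads in vehicle and 85.5% in the shLSD1 line without Dox, and for RPL9 60.5% and 66.5%. The corresponding shares were 34.1% and 55.9% for RPL26 and 31.4% and 34.5% for RPL23A. The levels of these genes are therefore uncertain, since near-identical copies can split their reads.

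**Figure D1:**
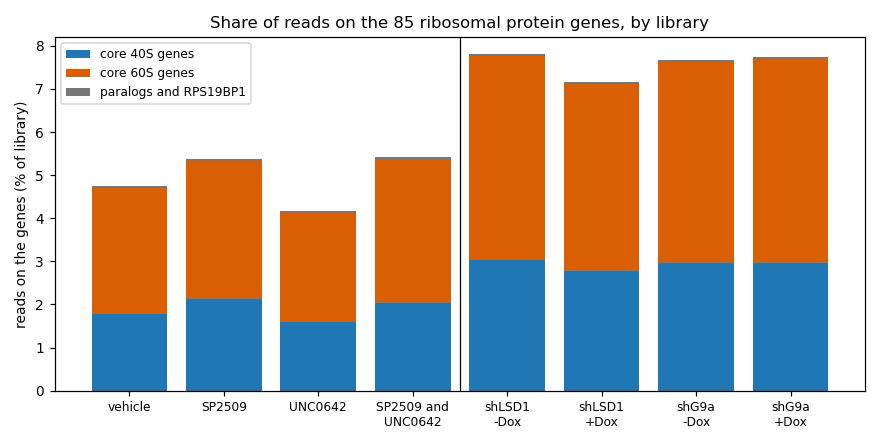
Reads on the 85 ribosomal protein genes as a percentage of each library's total, stacked by core 40S genes, core 60S genes, and paralogs with RPS19BP1; the vertical line separates the inhibitor table (left) from the shRNA table (right), which were processed as separate tables. The share runs from 4.159% with UNC0642 to 5.423% with both inhibitors on the left, and from 7.155% to 7.809% on the right.

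All ribosomal protein genes together took 4.75% of the reads in vehicle (95% Wilson interval 4.74% to 4.76%), 5.38% with SP2509, 4.16% with UNC0642 and 5.42% with both inhibitors. In the shLSD1 line the share was 7.81% without and 7.16% with Dox, and the shG9a line gave 7.67% without and 7.74% with Dox. The SP2509 and combination libraries lay above vehicle, the UNC0642 library below it, and Dox moved the share by less in the shG9a than in the shLSD1 line. Of the summed FPKM, these genes took 5.961% in vehicle, 7.161% with SP2509, 5.437% with UNC0642 and 6.968% with both inhibitors. On that measure the shLSD1 line gave 9.196% without and 7.997% with Dox, and the shG9a line 9.03% and 8.327%. The combination thus lay below SP2509, and the shG9a line was lower with Dox, both opposite to the order by reads. Within every library the 60S genes took more reads than the 40S genes, with 2.91% against 1.79% in vehicle. All 4 shRNA libraries had a higher share than all 4 inhibitor libraries, but the tables rest on different gene lengths for 18 of the 85 genes, and line, culture and table cannot be told apart in that difference.

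**Figure D2:**
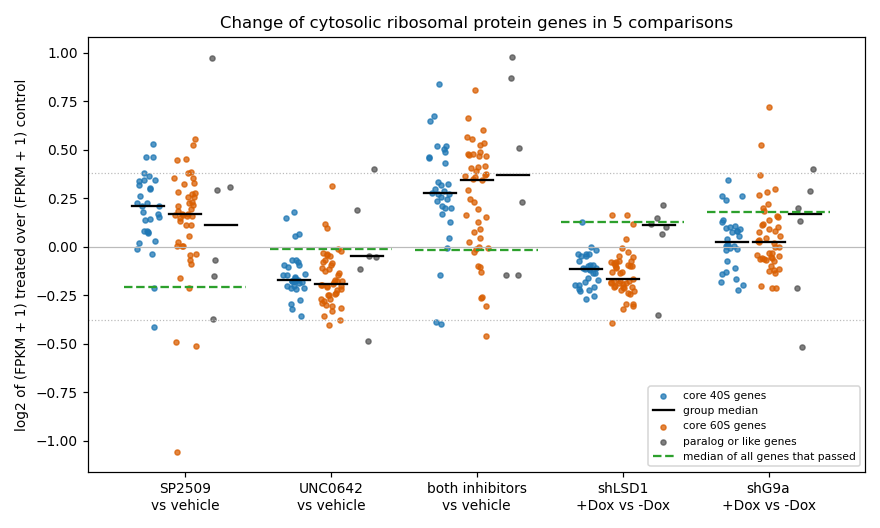
Each point is 1 gene, with the log2 ratio of (FPKM + 1) in the treated library over its control on the y axis and the 5 comparisons on the x axis; black bars are medians of the 40S, 60S and like-named genes, the dashed line is the median of all genes that passed the filter, and dotted lines mark the 1.3-fold threshold. Medians of 40S and 60S genes lie above the dashed line for SP2509 and for both inhibitors and below it in the other comparisons, and the shG9a medians, just above 0, fall below 0 once centred on the median gene.

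With SP2509, ribosomal protein genes were on the whole slightly higher than in vehicle while most other genes were lower. Of 83 members that passed the filter, 10 were higher and 4 lower by at least 1.3-fold, where 21.0% of all 13342 genes were higher and 39.9% were lower. The median log2 change was 0.17 over the members, with 66 above and 17 below 0, and -0.21 over all genes. It was 0.21 for 40S and 0.17 for 60S genes. Centred on the median gene of at least 5 FPKM, which lay at -0.09, the counts were 25 higher and 3 lower, and with TMM scaling, which moves every log2 ratio of this comparison by 0.30, they were 57 higher and 1 lower. TMM scaling here subtracts an unweighted trimmed mean of log2 FPKM ratios over all genes detected in both libraries. It uses FPKM and not counts.

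RPL39, among the smallest 60S proteins, stood at 101 FPKM in vehicle and 149 with SP2509, a ratio of 1.48 (1.41 to 1.54). RPS27, a 40S zinc-finger protein, stood at 484 and 699 FPKM. RPL41, which encodes a very short basic peptide, stood at 649 and 934 FPKM, and RPS19, the gene most often mutated in Diamond-Blackfan anemia, at 113 and 156 FPKM. These 4 core genes had the largest increases, each with a log2 change between 0.46 and 0.56. RPL22L1, the paralog of RPL22, exceeded them all, at 11.1 FPKM in vehicle and 22.7 FPKM with SP2509 (log2 change 0.97). The remaining genes past the threshold were RPL13, RPL29, RPL34, RPL37A and RPS9, and RPL13, at 1.301-fold, was the closest to it.

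The 4 lower genes were RPL6, RPL26, RPL36A and RPS23. RPL6, a 60S protein, was the only 1 of them with over 1000 reads, at 228 FPKM (15910 reads) in vehicle and 160 FPKM (12674 reads) with SP2509, a ratio of 0.701 (0.685 to 0.717). It stood at 215 FPKM with UNC0642 and 271 FPKM with both inhibitors, so SP2509 alone gave its lowest value. RPL36A stood at 1.97 and 0.425 FPKM on 122 and 30 reads. RPL26 had 178 and 131 reads and RPS23 had 189 and 143 reads. Without genes under 1000 reads in either library, RPL6 was the only gene counted as lower.

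With UNC0642, nearly all ribosomal protein genes lay a little below vehicle. Of 83 members, 74 had a log2 change below 0 and 9 above it, with a median of -0.17 against -0.01 over all genes. RPS27L was the only member higher by 1.3-fold and RPL3 and RPL22L1 were the only members lower, where 18.2% of all 13244 genes were higher and 16.9% were lower. The shift was thus broad and small, and the counting interval of the ratio lay wholly below 1 for 62 of 76 core genes and wholly above 1 for 3.

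RPL3, which lies next to the peptidyl transferase centre of the 60S subunit, stood at 338 FPKM in vehicle and 255 FPKM with UNC0642, a ratio of 0.755 (0.741 to 0.769). RPLP0, the base of the ribosomal stalk, followed at 503 and 387 FPKM, just short of the threshold. Next were RPL37, at 93.6 and 72.8 FPKM, and RPS28, at 58.6 and 45.6 FPKM. On the side of increases stood RPL26 (4.598 and 5.95 FPKM on 178 and 263 reads), RPS10 (1.21 and 1.498 FPKM), RPS26 (129 and 144 FPKM) and RPL22 (112 and 122 FPKM). None of these 4 passed 1.3-fold.

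With both inhibitors, 31 members were higher and 3 lower than vehicle, where 31.4% of all 13907 genes were higher and 31.7% were lower. A larger spread was thus present in all genes, but the members lay mostly on 1 side, with 67 above and 16 below 0 and a median log2 change of 0.29 against -0.02 over all genes. The 372 other protein-coding genes with a canonical transcript (GENCODE) shorter than the core median of 827 bases had a median of 0.26. The shift was thus not particular to the members when set against short genes. The median was 0.28 for the 40S and 0.34 for the 60S genes. Of the 31, 10 were 40S genes, 17 were 60S genes, 3 were like-named genes and 1 was RPS19BP1. The SP2509, UNC0642 and combination comparisons share the vehicle library, so their values are not independent of each other.

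RPS27 had the largest increase of the core genes, at 484 FPKM in vehicle and 867 FPKM with both inhibitors, a ratio of 1.79 (1.74 to 1.84). RPL39 stood at 101 and 177 FPKM, a ratio of 1.76 (1.68 to 1.83). RPS15A, at 2.30 and 4.28 FPKM, rested on 241 and 482 reads, and RPL28, at 93.7 and 149 FPKM, on 10170 and 17410 reads. In the SP2509 library RPS27 and RPL39 lay between these values, at 699 and 149 FPKM, and in the UNC0642 library a little under vehicle, at 429 and 95.4 FPKM.

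Several of the most abundant members moved the other way. RPL3 stood at 338 FPKM in vehicle and 246 FPKM with both inhibitors, a ratio of 0.726 (0.713 to 0.740). RPSA, which encodes a 40S protein that is also known as the laminin receptor, stood at 399 and 302 FPKM, and RPS2, a 40S protein near the mRNA entry channel, at 1265 and 965 FPKM. RPLP0 stood at 503 and 407 FPKM, a log2 change of -0.31 that did not reach the threshold. RPS2 was at 1627 FPKM with SP2509 alone and 1123 FPKM with UNC0642 alone, so its lowest value of the 4 libraries was in the combination.

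**Figure D3:**
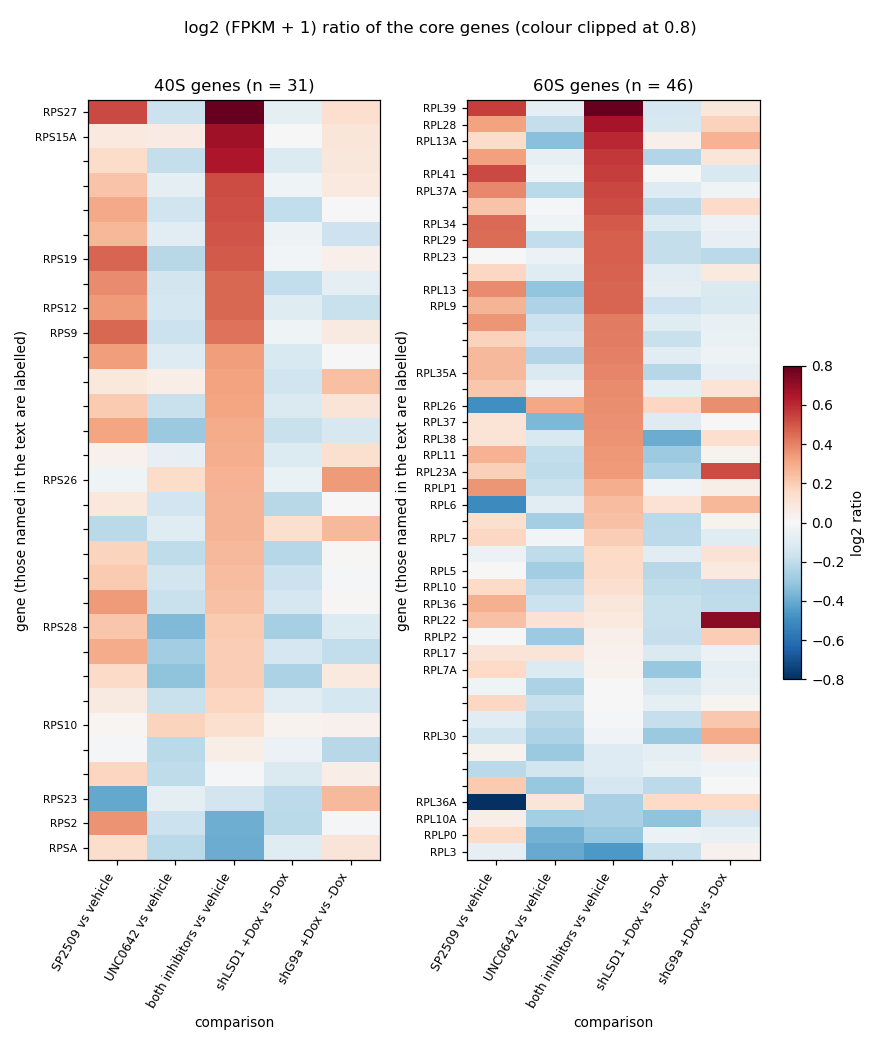
Log2 ratio of (FPKM + 1) for the 31 core 40S genes (left) and 46 core 60S genes (right) in the 5 comparisons, ordered by the change with both inhibitors and labelled for genes named in the text, with red higher and blue lower in the treated library and colours clipped at 0.8. RPS27 and RPL39 head the 2 columns at 0.84 and 0.81, RPSA and RPL3 close them at -0.40 and -0.46, and the blue cell of RPL36A under SP2509 stands for -1.06 on 122 and 30 reads.

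In the shLSD1 line, Dox was accompanied by slightly lower values of nearly all core genes while most other genes were higher. Of 82 members that passed the filter, none was higher and 1 was lower by at least 1.3-fold, where 24.8% of all 12970 genes were higher and 12.3% were lower. The median log2 change was -0.12 over members, with 11 above and 71 below 0, and 0.13 over all genes. Relative to the median gene of at least 5 FPKM, at 0.11, the members' median was -0.23, with 6 genes lower and none higher by 1.3-fold, and with TMM scaling 10 were lower. The median was -0.12 for 40S and -0.17 for 60S genes.

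The single gene past the threshold was RPL38, a 60S protein known for its part in translating Hox mRNAs, at 46.7 FPKM without and 35.3 FPKM with Dox, a ratio of 0.755 (0.716 to 0.796). The shG9a line gave 48.5 FPKM without and 53.4 FPKM with Dox for this gene. RPL10A stood at 751 and 601 FPKM, RPL7A at 933 and 755 FPKM, and RPL30 at 13.1 and 10.5 FPKM. All 3 had a log2 change between -0.32 and -0.30. The increases were smaller, and among the largest were those of RPL26 (123 and 141 reads), RPL36A (66 and 81 reads) and RPL6 (254 and 275 FPKM). RPL6 was the only 1 of these 3 with over 1000 reads, and with TMM scaling, which moves every log2 ratio here by 0.14, its value falls below 0.

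In the shG9a line with Dox, 3 members were higher and 1 lower, where 32.9% of all 13080 genes were higher and 17.6% were lower. The members' median was 0.03, with 47 above and 35 below 0, against 0.18 over all genes. This sign depends on the scaling: relative to the median gene of at least 5 FPKM, at 0.14, the members' median was -0.11, and with TMM scaling it was -0.20 with 1 gene higher and 9 lower. Between the lines, 38 of the core genes were below 0 with Dox in the shLSD1 line and above 0 in the shG9a line on the unscaled values.

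RPL22, a 60S protein that binds RNA, was highest among the changes, at 33.0 FPKM without and 55.0 FPKM with Dox in the shG9a line, a ratio of 1.67 (1.59 to 1.75) on 2556 and 4457 reads. The shLSD1 line gave 33.6 and 29.6 FPKM for the same gene. Pseudogenes named after RPL22 held 14.0% of the summed reads in the shLSD1 line without Dox and 0.0% in vehicle, so its level is uncertain too. RPL23A stood at 14.4 and 21.1 FPKM in the shG9a line and at 16.7 and 14.0 FPKM in the shLSD1 line. RPL26 (125 and 182 reads) and RPS26 (146 and 186 FPKM) came next among the core genes in the shG9a line and did not pass the threshold. Among the lowest log2 changes of the core genes in the shG9a line, all between -0.22 and -0.20, were those of RPL23 (136 and 117 FPKM), RPL10 (159 and 137 FPKM) and RPL36 (152 and 132 FPKM).

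The inhibitor and the hairpin of the same enzyme were compared through libraries that share no control. Of 82 members that passed in both, 62 were above 0 with SP2509 and below 0 with Dox in the shLSD1 line, 3 were above 0 in both and 9 below 0 in both, and none was counted in the same direction in both, on the unscaled values. The other 8 members were below 0 with SP2509 and above 0 with Dox. Over all 11769 genes that passed in both, 2325 were above 0 with SP2509 and below 0 with Dox, and 5571 were below 0 and then above 0. A further 1906 were above 0 in both and 1967 below 0 in both, so opposite signs were common among all genes too. Of all these genes, 298 were counted as higher and 244 as lower in both, so shared calls were rare among all genes too. For G9a, 35 members were below 0 with both UNC0642 and Dox in the shG9a line, 39 were below 0 and then above 0, and 8 above 0 in both. RPL22L1 was the single member counted as lower in both. Of all 11906 genes that passed in both, 2239 were below 0 in both, 3967 below 0 and then above 0, and 3520 above 0 in both, and 478 were counted as lower in both. These counts use unscaled values, and the sign of the members' median in the shG9a line turns with centring or TMM scaling.

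**Figure D4:**
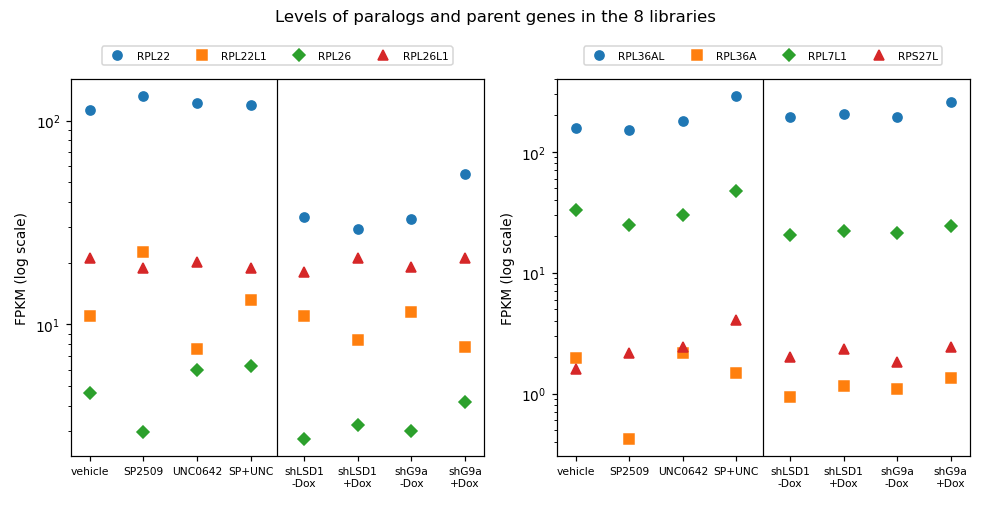
FPKM on a log scale of 4 genes per panel in the 8 libraries, each marker being 1 gene in 1 library and the vertical line separating the 2 tables. RPL22 and RPL22L1 move in opposite directions between the shG9a libraries (33.0 to 55.0 and 11.5 to 7.72 FPKM), and RPL36AL, RPL7L1 and RPS27L have their highest values in the inhibitor table with both inhibitors.

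RPL22L1 and RPL22 encode closely related proteins that can replace each other in the ribosome. RPL22L1 stood at 11.1, 22.7, 7.62 and 13.1 FPKM in vehicle, SP2509, UNC0642 and the combination, at 11.04 and 8.42 FPKM without and with Dox in the shLSD1 line, and at 11.5 and 7.72 FPKM in the shG9a line. It was highest with SP2509 and lowest with UNC0642 and with Dox in the shG9a line. RPL22L1 held 4.46% of the summed reads of the pair in vehicle, 7.53% with SP2509 and 2.88% with UNC0642, while the shG9a line had 14.7% without and 6.52% with Dox. RPL22 was at 112 FPKM in vehicle and 33.0 to 33.6 FPKM in the lines without Dox, on gene lengths of 4900 and 4682 bases. With its reads divided by the length of the same transcript, it stood at 918 in vehicle. The shLSD1 line without Dox gave 262 and the shG9a line without Dox 258 on that scale. Line, culture and table cannot be told apart in that difference.

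RPL36AL, a relative of RPL36A that encodes a nearly identical protein, stood at 158 FPKM in vehicle, 151 with SP2509, 180 with UNC0642 and 289 with both inhibitors. In the shG9a line it stood at 194 FPKM without and 257 FPKM with Dox. RPL36AL held 93.8% to 98.5% of the reads of the pair in the 8 libraries. RPS27L, a target of p53, stood at 1.59, 2.17, 2.41 and 4.10 FPKM in vehicle, SP2509, UNC0642 and the combination, on 227 to 631 reads. RPL7L1, a nucleolar relative of RPL7, stood at 32.7, 25.01, 30.1 and 46.9 FPKM in the same order. These 3 genes were higher in the combination than in any other library of that table.

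RPL26L1 differs from RPL26 at few residues and ranged from 18.1 to 21.1 FPKM over the 8 libraries, and none of its changes passed 1.3-fold. It held 58.9% to 75.3% of the reads of the pair, while RPL26 itself is among the genes whose reads also lie on pseudogenes. RPL39L, a testis-enriched relative of RPL39, ranged from 10.9 to 15.3 FPKM with no change past the threshold. RPL3L, which replaces RPL3 in striated muscle, had 28 reads or fewer in each library and did not pass the filter.

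The stalk and 5S groups, whose members are bound together before they join the ribosome, were followed in each comparison. RPLP0 had log2 changes of 0.16 with SP2509, -0.38 with UNC0642 and -0.31 with both inhibitors, and RPLP1 had 0.35, -0.18 and 0.29. RPLP2 had 0.00, -0.29 and 0.04. In the combination the stalk genes thus did not move together, RPLP0 being lower and RPLP1 higher than vehicle. With Dox they had -0.05, -0.03 and -0.19 in the shLSD1 line and -0.06, 0.05 and 0.20 in the shG9a line, in the order RPLP0, RPLP1 and RPLP2. RPL5 and RPL11, which with 5S rRNA can bind MDM2, had log2 changes of 0.00 and 0.28 with SP2509, -0.28 and -0.20 with UNC0642, 0.15 and 0.35 with both inhibitors, -0.22 and -0.29 with Dox in the shLSD1 line, and 0.08 and 0.03 in the shG9a line. None of these 5 genes passed 1.3-fold in any comparison, and of the values above 0 in the shG9a line only that of RPLP2 stays above 0 when centred on the median gene.

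Of 9 listed genes that are among those mutated in Diamond-Blackfan anemia, an inherited failure of red cell production, all 9 lay above 0 with both inhibitors. Their median was 0.28, near the 0.29 of all core genes, of which 62 of 76 lay above 0. RPS10, 1 of the 9, rested on 31 and 39 reads. Of the 9, RPS19 and RPL35A passed the threshold. With SP2509 RPS19 alone of the 9 passed, and with UNC0642 and in both lines with Dox none of them did. RACK1, a 40S scaffold protein that lies outside the name rule, stood at 217 FPKM in vehicle, 241 with SP2509, 190 with UNC0642 and 220 with both inhibitors. FAU, which encodes a 40S protein fused to a ubiquitin-like protein, stood at 21.5, 21.9, 22.0 and 27.5 FPKM in the same order. Neither passed 1.3-fold in any comparison.

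Other mRNAs known to carry a TOP element, among them the elongation factors EEF1A1 and EEF2 and the poly(A)-binding protein PABPC1, were listed for 14 of 15 genes. Their median log2 change was 0.05 with SP2509, -0.22 with UNC0642, -0.18 with both inhibitors, -0.05 with Dox in the shLSD1 line and 0.11 in the shG9a line, which falls below 0 when centred on the median gene. In the combination, 10 of the 14 lay below and 4 above 0, whereas 67 of 83 ribosomal protein genes lay above 0. HNRNPA1 (349 and 243 FPKM), EIF3E (74.2 and 53.3 FPKM) and EEF1B2 (145 and 109 FPKM) were lower by 1.3-fold there, and TPT1 (48.5 and 92.9 FPKM) was higher. Of all genes, 31.7% were lower and 31.4% were higher there.

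Among genes that govern growth and TOP mRNAs, MYC and LARP1 had larger log2 changes with SP2509, at 2.34 and -1.78, than any core ribosomal protein gene. MYC stood at 137 FPKM in vehicle, 697 with SP2509, 153 with UNC0642 and 182 with both inhibitors. It stood at 219 and 105 FPKM without and with Dox in the shLSD1 line and at 206 and 67.2 FPKM in the shG9a line. LARP1 stood at 57.0, 15.9, 49.7 and 38.3 FPKM in vehicle, SP2509, UNC0642 and the combination, and MTOR at 12.9, 5.32, 10.8 and 7.35 FPKM. With SP2509, 10 of 17 genes of this list that passed the filter were lower by 1.3-fold and 2, MYC and RHEB, were higher. Of all genes, 39.9% were lower and 21.0% were higher in that comparison. The part of MYC, LARP1 or MTOR in the values of the ribosomal protein genes was not tested.

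Dedicated chaperones escort single ribosomal proteins from the ribosome that made them to the nucleus. The 6 listed ones, GRWD1, HEATR3, PDCD2, PDCD2L, BCCIP and TSR2, had a median log2 change of -0.70 with SP2509, where 4 of 6 were lower by 1.3-fold, and of 0.50 in the shG9a line with Dox, where 5 of 6 were higher. Of all genes, 39.9% were lower with SP2509 and 32.9% were higher in the shG9a line with Dox. The genes of the mitochondrial ribosome, which is built from other proteins, had a median of -0.35 with SP2509, against -0.21 over all genes. Of 73, 33 (45.2%) were lower and 5 higher. In the shG9a line with Dox their median was 0.34, against 0.18 over all genes, with 31 of 73 (42.5%) higher and 1 lower. With both inhibitors 25 of 74 (33.8%) were lower and 13 (17.6%) higher, where 31.7% of all genes were lower and 31.4% were higher. The median of the cytosolic genes lay above that of the mitochondrial genes with SP2509 and with both inhibitors and below it in the other 3 comparisons.

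Pseudogenes of ribosomal proteins, which carry near-copies of the mRNAs, had medians of 0.32 with SP2509, -0.16 with UNC0642, 0.27 with both inhibitors, -0.14 with Dox in the shLSD1 line and 0.08 in the shG9a line, the last again below 0 when centred. Each of these unscaled medians has the sign of the members' own median, and reads of the members that were placed on their copies cannot be told apart from transcription of the pseudogenes.

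Across the 76 core genes the change with both inhibitors was related to transcript length to a degree that hung on the transcript chosen. With the protein-coding transcript nearest the median length of its gene, Spearman's rho was -0.46, and the median log2 change was 0.39 in the 25 genes with transcripts of 352 to 564 bases and 0.17 in the 26 genes with transcripts of 741 bases or more. With the canonical transcript of GENCODE, which in several of these genes includes a long untranslated end, rho was -0.21. Over 11092 protein-coding genes that passed the filter it was -0.11, and 372 other protein-coding genes shorter than the median core gene, at 827 bases, had a median log2 change of 0.26. In the shLSD1 line with Dox rho was 0.02 with either choice. These are values across genes of the same libraries, which are not independent replicates, and the part of RNA quality or of the selection of fragments by size was not tested.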

How the data were processed

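RNA of 8 Kyse510 libraries was sequenced as paired reads of 150 bases. Per the study's methods, reads of low quality and with adapters were removed and the rest mapped to GRCh38 with annotation release 87; the aligner and counter are not given in the sources used here. The authors deposited FPKM values in 2 tables, 1 for the inhibitors and 1 for the hairpin lines, and no counts. Because low FPKM values are multiples of what 1 fragment is worth, gene lengths and library totals could be solved for, and the whole reads returned 99.6% to 99.8% of each total. Several lengths were possible for 8 genes in the inhibitor table (RPL11, RPL13A, RPL15, RPL17, RPLP2, RPS10, RPS20 and RPS24). The same held for 4 in the shRNA table (RPL13A, RPL19, RPLP2 and RPS20). The smallest length possible in both tables was kept, or else the smallest in each. The reads, intervals and shares of these genes rest on that choice, and their reads may be too low. For RPLP2 the kept length of 391 bases is shorter than its canonical transcript of 462 bases, so its reads are likely too low.

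Changes were log2 ratios of (FPKM + 1). Genes with at least 1 FPKM in either library were kept, and a ratio of at least 1.3 was counted as higher or lower. Intervals are 95% intervals of 2 Poisson counts, or Wilson intervals for shares, and cover counting error only. No condition has a second library, so no count model or test of conditions was run. Levels per transcript used GENCODE release 44, and start sequences RefSeq (GRCh38.p14), which had an entry for 67 of 85 genes. The read recovery and calls were tested on simulated data. Python 3.11.15, pandas 2.3.3, numpy 2.4.6, scipy 1.17.1 and matplotlib 3.10.9 were used.

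The members and gene lists were chosen with earlier results of these data known. Genes named were the 4 core genes with the largest increase and the 4 with the largest decrease in each comparison, all genes past the threshold where these were at most 12, the stalk, 5S and like-named genes, the 5 highest and 5 lowest core genes in vehicle, and the fixed lists; single genes of those lists were picked after their values were seen. Alternatives were other pseudocounts, filters, scalings and thresholds, core genes alone, and the mean of both libraries without Dox. Some genes that this rule picks are not reported here.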

Additional observations from a re-analysis of the deposited data

Results flagged for a closer look

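For 3 members Dox was accompanied by changes in opposite directions in the 2 hairpin lines, with 1 of the 2 changes past 1.3-fold, and the difference between the lines was not tested because each condition has 1 library. RPL22 had a log2 change of -0.18 in the shLSD1 line (33.6 to 29.6 FPKM) and 0.72 in the shG9a line (33.0 to 55.0 FPKM). RPL23A had -0.24 in the shLSD1 line and 0.52 in the shG9a line, on 671 to 1032 reads, and pseudogenes named after it hold part of its reads. RPL38 had -0.40 in the shLSD1 line and 0.14 in the shG9a line. All genes that passed the filter had a median change of 0.13 in the shLSD1 and 0.18 in the shG9a line, so relative to it RPL38 lay below the median gene in both.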

How the results depend on the processing

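Of 156 values recomputed over 5 comparisons, settings kept 111 within 1.5-fold (counts) or 0.1 on the log2 scale (medians), 43 moved and 2 reversed. TMM scaling gave 57 higher, 1 lower and a median of 0.469 for SP2509, 10 lower and a median of -0.263 for the shLSD1 line, and 1 higher, 9 lower and a reversed median of -0.196 for the shG9a line. Centring on the median gene gave 25 higher for SP2509, 6 lower and a median of -0.229 for the shLSD1 line, and a reversed median of -0.114 for the shG9a line. These shifts follow from the scaling itself, which moves every gene of a library alike. At a threshold of 1.1-fold, 52 were higher and 9 lower with SP2509, 5 and 51 with UNC0642, 59 and 9 with both inhibitors, 5 and 35 in the shLSD1 line, and 18 and 10 in the shG9a line. At a threshold of 2-fold, 0 were higher in each comparison, and 0 were lower in each except SP2509, with 1. Requiring 5 FPKM left 1 lower with SP2509 and 0 higher with UNC0642. Requiring 1000 reads in both libraries, an alternative chosen after seeing the data, left 1 lower with SP2509, 0 higher and 1 lower with UNC0642, and 0 lower in the shG9a line. Core genes alone gave 0 higher and 1 lower with UNC0642 and 0 lower in the shG9a line. A pseudocount of 0.1 gave 2 lower in the shLSD1 and 5 higher in the shG9a line, and none gave 2 and 6. Against the mean of both libraries without Dox, 2 were lower in the shLSD1 line. The cause of these smaller moves was not tested beyond the number of genes each setting keeps. The median kept its sign in every setting for the inhibitors and the shLSD1 line. No paired analysis was possible because each condition has 1 library. Depth limits the core genes under 1000 reads, 10 of 77 in vehicle. Among these, RPL17, RPLP2 and RPS10 had several possible lengths, so their reads are less certain. The reads of RPLP2 are likely too low, so depth may not limit it.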
